A study of Mus musculus with 6 samples.

Results

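The genes of the DNA replication machinery were compared between control and Zfhx3-CKO lateral ganglionic eminence (LGE), the embryonic ventral forebrain region that generates the projection neurons of the striatum. The 43 genes were taken by symbol from a list of helicase, polymerase, clamp, origin and nucleotide synthesis genes, and all 43 were found, each once, among the 29659 genes of the full deposited table. RNA was sequenced from mouse LGE of the C57BL/6 strain at embryonic day 16.5, in 3 control libraries and 3 Zfhx3-CKO libraries. The control genotype was Dlx5/6-Cre and the Zfhx3-CKO genotype was Dlx5/6-Cre with Zfhx3F/F, floxed copies of the gene for the transcription factor Zfhx3, and is abbreviated CKO; thus every library carried the Cre transgene, and the labels give no floxed allele for the controls. Dlx5/6-Cre acts in cells of the ganglionic eminences that express Dlx genes, and cells outside that lineage in the dissected tissue keep Zfhx3. The labels do not say whether the replicates came from separate embryos, and the p-values therefore rest on the spread from library to library alone, which could be technical.

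Replication begins at origins, where the origin recognition complex, Cdc6 and Cdt1 load the ring of Mcm2 to Mcm7, the core of the helicase that unwinds DNA. Cdc45 and the GINS complex turn the loaded ring into the active helicase, polymerase alpha with primase starts each new strand, polymerases delta and epsilon extend it on the sliding clamp encoded by Pcna, and ligase joins the fragments of the lagging strand. In the embryonic forebrain these genes are transcribed mainly in dividing progenitors of the ventricular and subventricular zones, under E2F transcription factors, and are turned down as cells leave the cycle and become neurons.

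Letters known from E2F and NF-Y binding were searched in the RefSeq promoter windows (GRCm38.p6, 250 bases before to 50 after each start) of the members, because S-phase genes are the textbook group of E2F targets. The E2F letters were TTTCCCGC, TTTCGCGC, TTTGCCGC and TTTGGCGC, and the NF-Y letters were CCAAT, on both strands; E2F matches on opposite strands can share bases. Windows were found for 36 of the 43 members, 42 windows in all. E2F letters stood in 14 of the 42 windows (33.3%), against 2.85% of 21263 windows of protein-coding genes and 2.26% of all 32851 windows. CCAAT stood in 59.5% of the members' windows and in 37.4% of all windows. The median GC content was 60.7% in the members' windows, 56.3% in those of protein-coding genes and 52.7% in all windows. Of the 23 mitosis genes listed for comparison 20 had a window, with E2F letters in 4.76% and CCAAT in 76.2% of their 21 windows. A match describes the letters and is not evidence of a bound site.

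The 250 bases before the start are given for the helicase genes Mcm5 and Mcm6, which hold overlapping E2F matches, for Orc1, a member with E2F letters whose level was not above control in any CKO library, and for Rrm2 and Rpa2, the members with the smallest p-values. Capitals mark the E2F letters and CCAAT or their reverse complements, and each sequence runs 5′ to 3′ on the gene's strand.
Mcm5 (chr8:75109259-75109508, plus strand): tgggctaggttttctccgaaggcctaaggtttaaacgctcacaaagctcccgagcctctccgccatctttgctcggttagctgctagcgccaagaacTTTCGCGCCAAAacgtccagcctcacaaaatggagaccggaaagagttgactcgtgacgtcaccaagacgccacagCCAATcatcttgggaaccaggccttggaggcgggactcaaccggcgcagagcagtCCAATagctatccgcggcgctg
Mcm6 (chr1:128359706-128359955, minus strand): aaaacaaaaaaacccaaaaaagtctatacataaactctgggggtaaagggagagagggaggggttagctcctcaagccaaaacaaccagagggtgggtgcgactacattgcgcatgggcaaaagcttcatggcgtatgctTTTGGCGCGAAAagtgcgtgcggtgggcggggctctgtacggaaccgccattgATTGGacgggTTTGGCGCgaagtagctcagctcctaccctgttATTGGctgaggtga
Orc1 (chr4:108579204-108579453, plus strand): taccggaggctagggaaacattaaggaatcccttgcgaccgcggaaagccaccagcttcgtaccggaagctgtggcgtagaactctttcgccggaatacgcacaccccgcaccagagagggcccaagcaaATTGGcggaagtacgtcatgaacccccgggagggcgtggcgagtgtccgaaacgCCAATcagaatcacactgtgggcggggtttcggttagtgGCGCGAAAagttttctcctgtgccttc
Rrm2 (chr12:24708004-24708253, plus strand): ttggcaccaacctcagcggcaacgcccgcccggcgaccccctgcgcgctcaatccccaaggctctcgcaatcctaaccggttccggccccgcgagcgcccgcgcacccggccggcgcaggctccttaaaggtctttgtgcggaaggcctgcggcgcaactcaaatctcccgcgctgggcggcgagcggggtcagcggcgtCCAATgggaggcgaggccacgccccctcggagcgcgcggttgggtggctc
Rpa2 (chr4:132768110-132768359, plus strand): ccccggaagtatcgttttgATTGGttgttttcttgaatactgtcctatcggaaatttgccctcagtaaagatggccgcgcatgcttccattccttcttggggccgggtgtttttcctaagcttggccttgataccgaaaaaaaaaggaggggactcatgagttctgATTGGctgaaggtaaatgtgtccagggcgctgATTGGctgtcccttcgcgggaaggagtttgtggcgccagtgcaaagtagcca
In Mcm5 the 2 overlapping E2F matches began 153 and 149 bases before the start, and in Mcm6 a similar pair began 110 and 106 bases before it with a further match at 47. Orc1 had a single match at 27 bases. Rrm2 and Rpa2 had no E2F letters in these windows and held 1 and 3 CCAAT matches.

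Depth was 15938590 to 16753355 counts for the controls and 18960574 to 20311799 for the CKO libraries. Whole-gene Zfhx3 stood at 77.3% of the control mean in the CKO libraries (log2 fold change -0.37 with an SE of 0.12, adjusted p 0.091). It was at 133.7, 134.6 and 100.8 CPM (counts scaled to a common library size) in control libraries 1 to 3. In CKO libraries 1 to 3 it was at 98.7, 87.3 and 99.3 CPM, just below control library 3 in libraries 1 and 3. The deleted exons are not given in the labels, so transcripts without them can still be counted. Xist counts were 5 to 9 in the controls and 55947 to 59631 in the CKO libraries, so sex and genotype cannot be told apart here. All 12 LGE progenitor and all 11 LGE and striatal neuron genes were measured. The former, which include Gsx2 and Gsx1, had summed levels of 3275 to 4404 CPM. The latter, which include Dlx5 and Dlx6, had summed levels of 3278 to 4273 CPM. Markers of other regions and cell types were measured as well, so this does not test the LGE label. CKO libraries 1 and 3 stood apart by cortical excitatory neuron markers (Neurod1, Neurod2 and others), whose 11 genes summed to 304 and 433.9 CPM, against 190.6 to 206.5 CPM in the controls and 194.3 CPM in CKO library 2.

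None of the 43 replication genes passed the test across all 6 libraries (edgeR's quasi-likelihood test, Benjamini-Hochberg adjusted p under 0.05), where 3.87% of the 16551 genes tested passed as higher and 3.49% as lower. Most of them had a positive log2 fold change of CKO over control, 38 of 43 (88.4%), against 50.1% of all tested genes, and their median was 0.16 against 0.0011. In libraries of whole tissue, a change in the number of cells of a type and a change in RNA per cell cannot be told apart. At an unadjusted p under 0.05, 7 members were higher and none was lower, where 13.5% and 12.1% of all genes were. The other tools differed: DESeq2 called 4 members higher (Pold1, Pole, Rpa2 and Rrm2), where it called 6.01% of the genes to which it gave an adjusted p, and limma-trend on FPKM called none. Without the low-count filter, edgeR called Chaf1a as well as those 4, with 3.62% of all genes called higher.

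The values differed between the CKO libraries. Relative to the mean of the controls, the median member stood at 0.24, 0.33 and -0.09 (log2) in CKO libraries 1 to 3, and at -0.10, 0.01 and 0.09 in control libraries 1 to 3. CKO library 3 therefore lay inside the range of the controls and the other 2 above it. For 34 of the 43 members (79.1%) CKO libraries 1 and 2 were both above all 3 controls, which was true of 23.6% of all tested genes. CKO library 2 was the highest of the 6 for 32 members (74.4%, against 20.9% of all tested genes). CKO library 3 was the lowest of the 6 for 20 (46.5%, against 21.8%) and the highest for none (21.3% of all tested genes). In it 42 members (97.7%, against 39.7%) were lower than in the other 2 CKO libraries. With all 3 libraries counted, the CPM values of the groups did not overlap for 6 members, smaller shares than over all tested genes. Rrm2, Rpa2, Pold1 and Gins2 were higher in every CKO library (9.3% of the members, against 15.5%). Orc1 and Fen1 were lower in every one (4.65%, against 15.9%), and the raw counts of Fen1 ran from 14 to 17 in both groups.

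**Figure D1:**
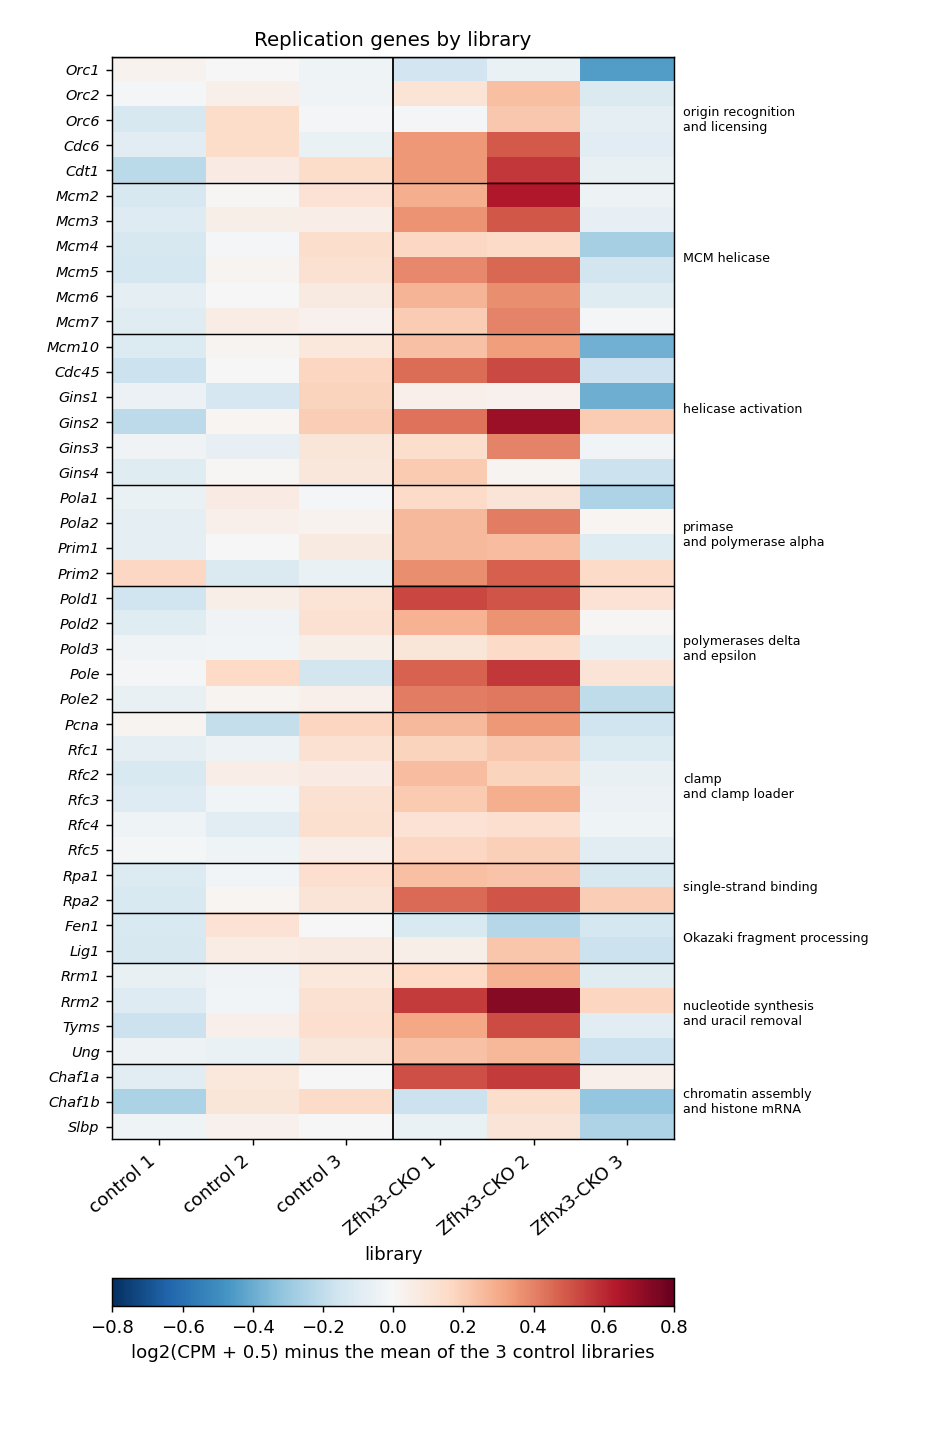
Heat map of the 43 replication genes (rows, by role) in the 6 libraries (columns); colour is log2(CPM + 0.5) minus the mean of the 3 control libraries. Most rows are red in CKO libraries 1 and 2, where the median member stands at 0.24 and 0.33, and pale or blue in CKO library 3, where it stands at -0.09.

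Leaving out CKO library 3, 17 members passed as higher and none as lower, where 6.47% of 16735 tested genes passed as higher, and the median log2 fold change was 0.28. That library was the lowest CKO library for 42 members, so with this filter and test these calls depend on leaving out the low library. The 17 were Cdc45, Cdc6, Cdt1, Chaf1a, Gins2, Mcm2, Mcm3, Mcm5, Mcm6, Mcm7, Pola2, Pold1, Pole, Prim2, Rpa2, Rrm2 and Tyms. Of these, Pold1, Pole, Rpa2 and Rrm2 were also called from all 6 libraries by DESeq2 and, with Chaf1a, by edgeR without the low-count filter. Leaving out any other single library gave 0 calls, with medians from 0.09 (without CKO library 2) to 0.22 (without control library 3). Of all tested genes, 0.93%, 0.91% and 2.43% passed as higher without control libraries 1, 2 and 3. The share was 1.32% without CKO library 1 and 5.11% without CKO library 2. Without CKO libraries 1 and 3, the pair with high cortical markers, a setting chosen after the data were seen, 16 members passed as higher, where 4.97% of all genes did; that fit keeps only CKO library 2, whose spread is taken to equal that of the controls.

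**Figure D2:**
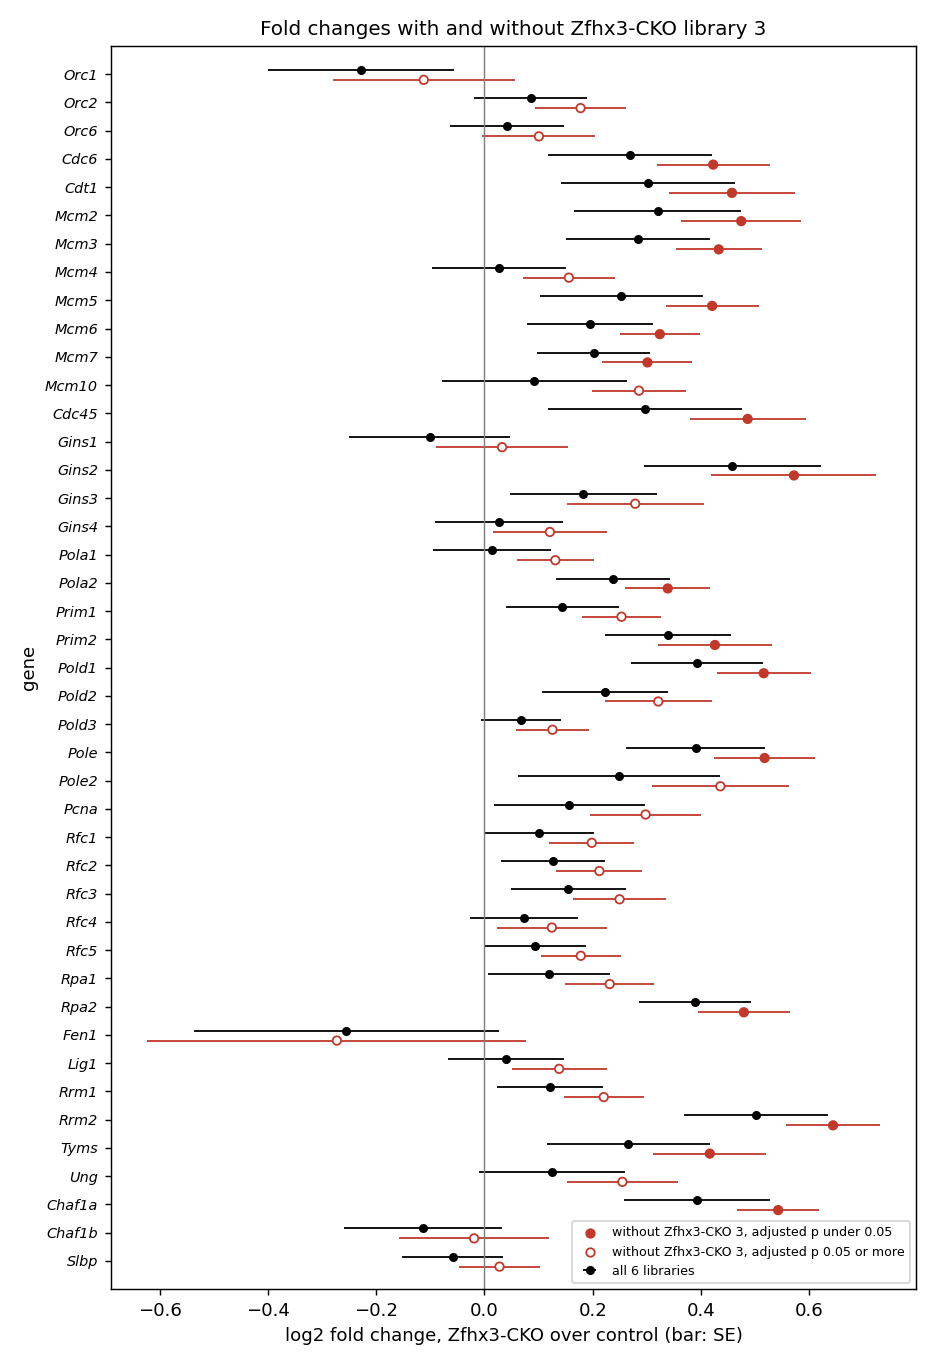
Log2 fold change of CKO over control with its SE for each of the 43 genes, from all 6 libraries (black) and without CKO library 3 (red; filled where the adjusted p was under 0.05). No black point passed the threshold and 17 red points did, from Mcm7 at 0.30 to Rrm2 at 0.64. The library left out was the lowest CKO library for 42 members.

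The 5 origin recognition and licensing genes had log2 fold changes from -0.23 to 0.30. Cdt1, which loads the helicase ring and is destroyed once S phase starts, was measured at 37.9, 46.3 and 48.9 CPM in control libraries 1 to 3 and at 56.3, 65.5 and 42.4 CPM in CKO libraries 1 to 3 (log2 fold change 0.30 with an SE of 0.16, adjusted p 0.276). Cdc6, its partner in loading, was at 27.3, 32.4 and 28.0 CPM and at 37.2, 41.1 and 27.4 CPM (log2 fold change 0.27 with an SE of 0.15, adjusted p 0.303). In both genes the first 2 CKO libraries lay above every control and the third among them. The origin recognition subunits had smaller or negative values: Orc2 stood at 0.09, Orc6 at 0.04 and Orc1, the subunit whose level follows the cycle, at -0.23 (SE 0.17, adjusted p 0.441). Orc1 was at 5.97, 5.86 and 5.68 CPM in control libraries and at 5.19, 5.61 and 4.15 CPM in CKO libraries, all below the controls, from 81 to 106 counts a library.

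The 6 helicase subunits all had positive log2 fold changes, from 0.03 (Mcm4) to 0.32 (Mcm2), with adjusted p-values of 0.222 or more. Mcm2 was measured at 139.3, 152.7 and 165 CPM among controls and at 186.1, 236.8 and 147.5 CPM in CKO libraries (log2 fold change 0.32 with an SE of 0.15, adjusted p 0.235). Mcm3 was at 103.4, 114.8 and 115.4 CPM and at 142.8, 157.2 and 106.2 CPM (log2 fold change 0.28 with an SE of 0.13, adjusted p 0.222). For Mcm2 and Mcm3 the highest value was that of CKO library 2, and library 3 lay within the control range. For Mcm4, Mcm5 and Mcm6 CKO library 3 was below every control, at 96.5, 111.8 and 156.9 CPM, and for Mcm4 CKO library 1 was the highest at 129.9 CPM. Without CKO library 3, 5 of the 6 subunits passed, and Mcm4 did not (log2 fold change 0.16, adjusted p 0.258).

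Per gene length, in FPKM, the 6 subunits of the ring ranged from 21.9 to 49.9 in the controls. Mcm2 had 21.9 ± 1.94, Mcm3 29.7 ± 1.85, Mcm5 31.2 ± 2.96, Mcm4 32.4 ± 3.18, Mcm6 36.1 ± 2.01 and Mcm7 49.9 ± 2.88 FPKM (SD, n = 3). Neighbours from Mcm3 to Mcm6 in this order differed by less than the sum of their SDs, while Mcm2 lay below and Mcm7 above the others. The Mcm7 model shares exon bases with Ap4m1 and Cops6 on the other strand (7.3% and 1.4% of its exon bases) and holds the genes of the microRNAs Mir25 and Mir93. Pcna was the most abundant member, at 94.5 ± 12.4 FPKM, followed by Rrm2 at 63.6 ± 5.31, and Fen1 the least, at 0.39 ± 0.05.

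**Figure D3:**
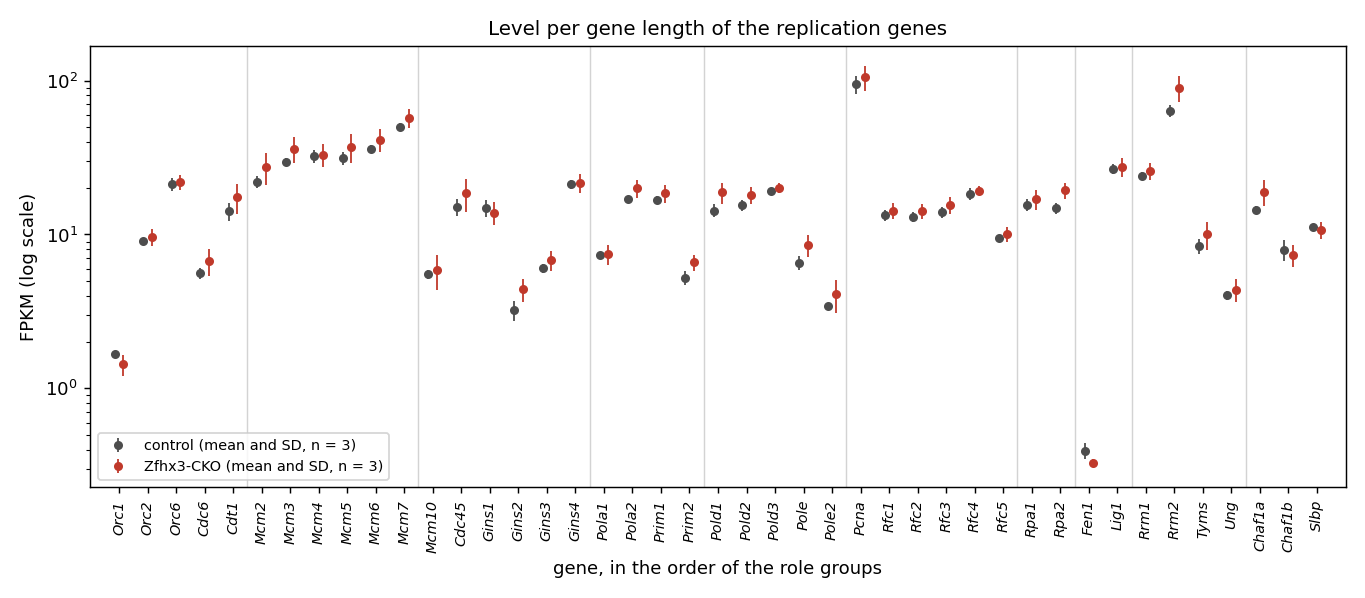
Level per gene length (FPKM, log scale) of the 43 genes in control (grey) and CKO (red) libraries, as mean and SD over 3 libraries, with grey lines between role groups. The Mcm2 to Mcm7 means lie between 21.9 and 49.9 FPKM in the controls, Pcna is the highest at 94.5 and Fen1 the lowest at 0.39.

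Among the genes that activate the helicase, Gins2 had the largest difference. It was measured at 11.2, 13.2 and 15.01 CPM in control libraries and at 17.8, 21.3 and 15.1 CPM in CKO libraries, or 0.46 higher on the log2 scale (SE 0.16, adjusted p 0.125). The groups did not overlap, with CKO library 3 next to control library 3. Of the exon bases of Gins2, 67.3% are shared with Gse1 on the opposite strand, a gene that rose (log2 fold change 0.37, adjusted p 0.0422), and the sources used here do not say that strand was used in counting, so the value of Gins2 is uncertain. Cdc45, the other helicase partner, was at 30.0, 33.7 and 38.2 CPM and at 46.2, 48.9 and 30.0 CPM (log2 fold change 0.30 with an SE of 0.18, adjusted p 0.334). The remaining GINS subunits had smaller values: Gins3 0.18, Gins4 0.03 and Gins1 -0.10. Mcm10, which helps to activate the helicase, had a log2 fold change of 0.09, with the lowest level of all 6 libraries in CKO library 3 (32.3 CPM).

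The primase and polymerase alpha genes spread from 0.01 to 0.34. Prim2, the large primase subunit, was measured at 34.7, 28.5 and 29.7 CPM among controls and at 40.1, 43.1 and 34.4 CPM in CKO libraries (log2 fold change 0.34 with an SE of 0.12, adjusted p 0.113), with CKO library 3 just under control library 1. Pola2, the regulatory subunit of polymerase alpha, was at 46.3, 50.1 and 49.6 CPM and at 58.4, 64.6 and 49.1 CPM (log2 fold change 0.24 with an SE of 0.11, adjusted p 0.201). Prim1, the catalytic primase, had a log2 fold change of 0.14. Pola1, the catalytic subunit and the only member on the X chromosome, had a log2 difference of 0.01 (SE 0.11, adjusted p 0.958) between groups that also differ in Xist.

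Both catalytic subunits of the strand-extending polymerases stood among the members with the smallest p-values. Pold1, of polymerase delta (chr7:44532746-44548849, minus strand, GRCm38 as deposited), was measured at 62.0, 71.5 and 74.7 CPM in control libraries and at 100.3, 98.1 and 75.1 CPM in CKO libraries (log2 fold change 0.39 with an SE of 0.12, adjusted p 0.0877). Pole, of polymerase epsilon (chr5:110286306-110337474, plus strand), was at 71.9, 81.3 and 65.6 CPM and at 101, 107.7 and 78.1 CPM (log2 fold change 0.39 with an SE of 0.13, adjusted p 0.102). The third CKO library was above the controls by a small margin in Pold1 and lay among them in Pole. The accessory subunits had smaller values, 0.22 for Pold2, 0.07 for Pold3 and 0.25 for Pole2, and adjusted p-values of 0.27 or more. Over the 14 alternatives the adjusted p ranged from 0.00781 to 0.263 for Pold1 and from 0.0106 to 0.258 for Pole, lowest without CKO library 3 in each case.

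For the sliding clamp and the complex that loads it, log2 fold changes ran from 0.07 (Rfc4) to 0.16 (Pcna), and no member of the 6 passed in any of the 14 alternatives. Rfc3 was measured at 46.8, 49.6 and 54.8 CPM among controls and at 58.1, 61.7 and 48.6 CPM in CKO libraries (log2 fold change 0.16 with an SE of 0.11, adjusted p 0.393). Rfc2 was at 74.9, 84.8 and 85.4 CPM and at 96.8, 92.3 and 78.4 CPM (log2 fold change 0.13 with an SE of 0.10, adjusted p 0.445). Pcna itself was at 228.3, 197.1 and 253.5 CPM and at 269, 287 and 201.1 CPM, with an adjusted p of 0.524, and the third CKO library was lower than 2 of the 3 controls. Rfc1, Rfc4 and Rfc5 had log2 fold changes of 0.10, 0.07 and 0.09.

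The single-strand binding genes differed from each other in size of effect, by a difference that was not tested. Rpa2, the middle subunit of the single-strand binding complex (chr4:132768332-132778752, plus strand), was measured at 40.6, 44.8 and 47.5 CPM in control libraries and at 60.6, 62.8 and 50.6 CPM in CKO libraries, with no overlap (log2 fold change 0.39 with an SE of 0.10, adjusted p 0.0567). Its partner Rpa1 was at 80.1, 85.3 and 95 CPM and at 102.2, 101.5 and 79.2 CPM (log2 fold change 0.12 with an SE of 0.11, adjusted p 0.55). Per gene length the pair was close in the controls, 15.6 ± 1.43 and 14.8 ± 1.23 FPKM (SD, n = 3) for Rpa1 and Rpa2, and in the CKO libraries the means were 16.9 ± 2.43 and 19.4 ± 2.25. Lig1, the ligase that seals Okazaki fragments, was at 104, 118.7 and 119.5 CPM and at 117.8, 133.1 and 100.8 CPM (log2 fold change 0.04 with an SE of 0.11, adjusted p 0.854), groups that overlapped.

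Fen1, the flap nuclease that trims Okazaki fragments, was recorded at only 14 to 17 counts in every library, against 81 or more for every other member. Its values were 0.84, 1.07 and 0.96 CPM in the controls and 0.83, 0.74 and 0.82 CPM in CKO libraries (log2 fold change -0.25 with an SE of 0.28, adjusted p 0.62). In the GENCODE vM21 annotation 78.8% of its exon bases are covered by Gm10143 on the opposite strand, and a further 5.4% by Tmem258. Gm10143 was itself measured at a mean of 1.34 CPM in CKO libraries and did not pass the test (log2 fold change 0.05, adjusted p 0.946). The sources used here do not say how reads in shared bases were assigned, so the level of Fen1 is uncertain.

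Rrm2, the subunit of ribonucleotide reductase whose level rises in S phase (chr12:24708241-24714146, plus strand), had the largest fold change of the members. It was measured at 163.8, 173.3 and 191 CPM among controls and at 259, 290.7 and 198.2 CPM in CKO libraries, or 0.50 higher on the log2 scale (SE 0.13, 1.42-fold, adjusted p 0.056). All 3 CKO values were above all 3 controls, library 3 by a narrow margin. Rrm1, the partner subunit, had a log2 difference of 0.12 (SE 0.10, adjusted p 0.478). Tyms, which makes thymidylate, was at 44.9, 52.0 and 55.5 CPM and at 62.8, 72.8 and 47.7 CPM (log2 fold change 0.27 with an SE of 0.15, adjusted p 0.305), and Ung, which removes uracil from DNA, had a log2 fold change of 0.12. For Rrm2 the adjusted p ranged from 0.00305 to 0.199 over the 14 alternatives, and it passed with DESeq2 (0.00478) and unfiltered counts (0.00411), and also when CKO library 3 or libraries 1 and 3 were left out.

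**Figure D4:**
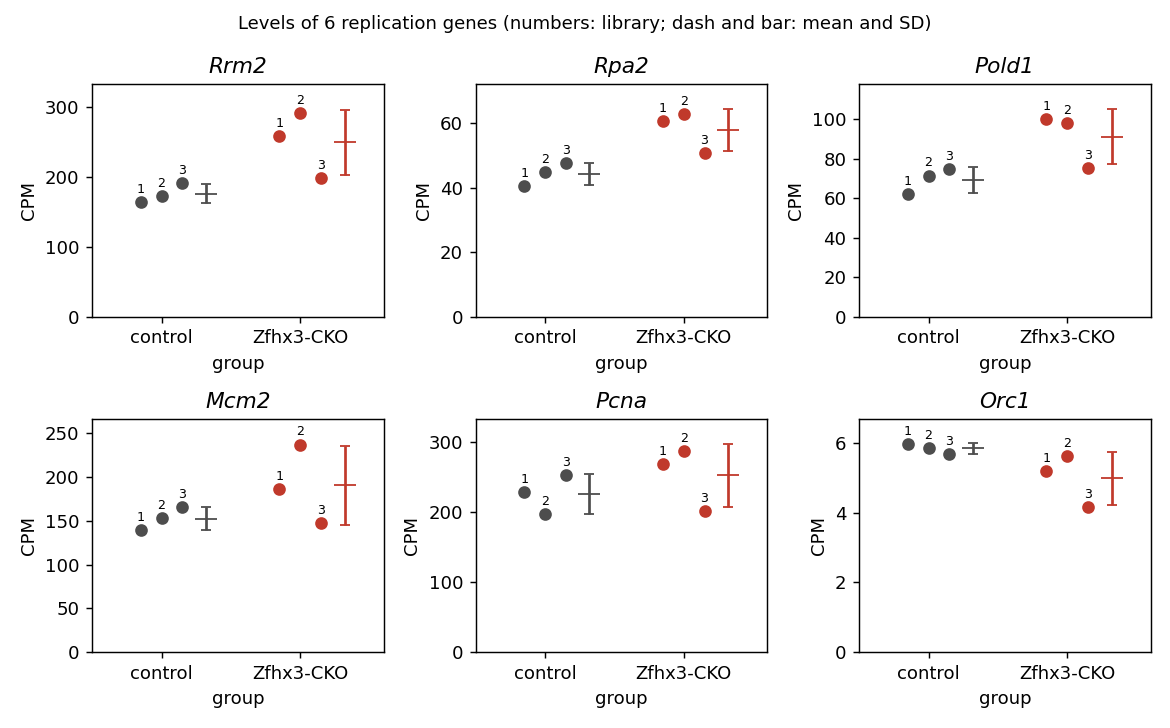
CPM of 6 members in each library (points, numbered by library) with group mean and SD. Rrm2, Rpa2 and Pold1 are higher in all 3 CKO libraries than in any control, Mcm2 and Pcna only in libraries 1 and 2, and Orc1 is lower in all 3.

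The chromatin assembly subunits had log2 fold changes of opposite sign. Chaf1a was measured at 45.2, 50.7 and 47.8 CPM in control libraries and at 68.7, 70.7 and 49.2 CPM in CKO libraries (log2 fold change 0.39 with an SE of 0.13, adjusted p 0.112). Chaf1b, its partner in the complex that deposits histones behind the fork, was at 33.1, 42.1 and 43.9 CPM and at 34.9, 43.4 and 31.7 CPM (log2 fold change -0.11 with an SE of 0.15, adjusted p 0.671). Slbp, which binds the ends of histone messages, had a log2 fold change of -0.06. For Chaf1a, 52.5% of the exon bases are shared with Ubxn6 on the opposite strand, whose log2 fold change was -0.08. In all, 16 of the 43 members share exon bases with another gene, 4 of them (Chaf1a, Fen1, Gins2 and Orc2) over more than 20% of their length.

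In the authors' deposited table, 4 members had an adjusted p under 0.05: Rrm2 (0.00436), Rpa2 (0.0188), Pold1 (0.0318) and Pole (0.04), all higher, where 6.87% of the genes with an adjusted p there were. A further column of the authors' deposited table marks 122 genes, and no member is among those.

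The 48 other replication factors were listed for their role, with earlier results of these data known. They gave 2 higher and 1 lower gene in the 6-library fit. Those were 4.17% and 2.08% of the list, near the 3.87% and 3.49% of all tested genes. Dbf4, which activates the Cdc7 kinase that fires origins, rose from 56.4, 59.0 and 62.0 CPM to 74.6, 84.0 and 71.9 CPM (log2 fold change 0.38 with an SE of 0.08, adjusted p 0.0307). Top2a, the topoisomerase that untangles replicated DNA, rose from 596.1, 638.8 and 635.3 CPM to 799.4, 869.1 and 702.7 CPM (log2 fold change 0.34 with an SE of 0.09, adjusted p 0.0477). Pole4, a small subunit of polymerase epsilon, fell (log2 fold change -0.31 with an SE of 0.08, adjusted p 0.0456), and Wdhd1, which ties the helicase to polymerase alpha, did not pass (0.39, SE 0.10, adjusted p 0.0514). The list's median was 0.13, and 15 of its genes (31.25%) were higher without CKO library 3, where 6.47% of all tested genes were. With control library 1, control library 2 or CKO library 1 left out no gene of the list passed in either direction. With control library 3 left out 0 were higher and 1 lower, and with CKO library 2 left out 1 was higher and 2 were lower. Over all tested genes the shares in these fits ran from 0.91% to 5.11% higher and from 0.77% to 3.61% lower.

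Of 25 regulators of the entry into S phase, 2 rose (8%) and 1 fell (4%), against 3.87% and 3.49% of all tested genes. Cdkn1a, the p21 inhibitor of cyclin-dependent kinases, rose from 22.1, 23.1 and 28.2 CPM to 37.4, 39.2 and 40.9 CPM (log2 fold change 0.68 with an SE of 0.11, adjusted p 0.0104). The activating factor E2f2 rose (log2 fold change 0.38 with an SE of 0.10, adjusted p 0.0493), and Rb1, the pocket protein that holds E2F factors in check, fell (log2 fold change -0.30 with an SE of 0.07, adjusted p 0.0322). E2f1 was above the controls in every CKO library without passing (log2 fold change 0.46 with an SE of 0.14, adjusted p 0.0763). In this list 7 genes (28%) were higher without CKO library 3, where 6.47% of all tested genes were. The count was 1 (Cdkn1a) with control library 3, CKO library 1 or CKO library 2 left out. It was 0 with control library 1 or control library 2 left out. Over all tested genes the share higher in these fits ran from 0.91% to 5.11%. Rb1 passed as lower without CKO library 3 and in no other fit with a single library left out.

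Mitosis genes, active after replication in the same dividing cells, gave the largest share of calls among the 3 lists outside the members. All 23 had positive log2 fold changes, with a median of 0.30, and 5 rose: Mki67 (log2 fold change 0.61 with an SE of 0.10, adjusted p 0.0124), Cenpf (0.47, SE 0.10, adjusted p 0.0294), Kif23 (0.49, SE 0.11, adjusted p 0.0296), Kif20a (0.46, SE 0.10, adjusted p 0.0307) and Bub1b, the fifth. These 5 were 21.7% of the list, against 3.87% of all tested genes. The count was 20 (87.0%) without CKO library 3, where 6.47% of all tested genes were higher. It was 4 without CKO library 2, 1 without control library 2 or control library 3, and 0 without control library 1 or CKO library 1. Of all tested genes 5.11% were higher without CKO library 2, 0.91% without control library 2 and 2.43% without control library 3. Without control library 1 the share was 0.93%, and without CKO library 1 it was 1.32%. Relative to the controls the median mitosis gene stood at 0.35, 0.49 and 0.10 in CKO libraries 1 to 3, which exceeded the median replication gene by 0.11, 0.15 and 0.19; in the controls the 2 medians differed by 0.01 or less. The summed CPM of the replication genes was 1.19, 1.19 and 1.26 times that of the mitosis genes in the controls and 1.11, 1.06 and 1.03 times in the CKO libraries, so the groups did not overlap on this ratio. The difference between the lists was noticed after the data were seen and was not tested.

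Marker lists of several cell types also differed between the libraries. The 12 LGE progenitor markers had median log2 differences from the controls of 0.35, 0.47 and -0.0027 in CKO libraries 1 to 3 and of -0.11, -0.06 and 0.16 in the controls, the same order as the replication genes in each group. The summed CPM of the replication genes was 0.85 to 0.93 times that of the progenitor markers in the controls and 0.90 to 0.93 times in the CKO libraries, so on this ratio the groups overlapped. The 8 markers of postmitotic neurons (Tubb3, Dcx and others) ran the other way, at -0.29, -0.44 and -0.07. The 11 LGE and striatal neuron markers summed to 3278, 3284 and 3418 CPM in CKO libraries 1 to 3, all below the 3795 to 4273 CPM of the controls. They did not all move 1 way: 2 of the 11 passed as higher and 5 as lower in the 6-library fit. Of all tested genes 3.87% and 3.49% did. The 5 medial ganglionic eminence markers (Nkx2-1, Lhx6 and others) summed to 323.8, 435 and 471.5 CPM, all above the controls at 258.2 to 291.8 CPM. Cortical excitatory markers had medians of 1.24, 0.02 and 1.90 in CKO libraries 1 to 3: they were high in library 1, where most replication genes were also above the controls, high in library 3, where the replication genes were low, and near the control level in library 2, where those genes were highest. The 5 cortical progenitor markers (Emx1, Emx2 and others), genes of dividing cells, summed to 83.4, 41.5 and 54.4 CPM, all above the controls at 25.3 to 39.6 CPM. Oligodendrocyte lineage markers (Olig1, Olig2 and others) summed to 133.2, 128.4 and 164.3 CPM, also above the controls at 104.7 to 117.2 CPM. By their medians CKO library 2 lay among the controls for both lists. It was at 0.15 for cortical progenitor markers (controls -0.34 to 0.38) and at -0.05 for oligodendrocyte markers (controls -0.05 to 0.03). Endothelial and pericyte markers (Pecam1, Cldn5 and others) summed to 249.1, 268.6 and 300.7 CPM against 248.6 to 256.3 CPM. Summed erythroid markers (Hba-a1, Hba-a2 and others) were 705.4, 2552 and 812.6 CPM in CKO libraries and 710.5 to 1080 CPM in the controls, and microglia markers (Cx3cr1, P2ry12 and others) were 231.5, 252.1 and 152.8 CPM against 227.9 to 330.9 CPM. No listed marker was at 0 in all 6 libraries. The part of these markers in the replication gene values was not tested.

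**Figure D5:**
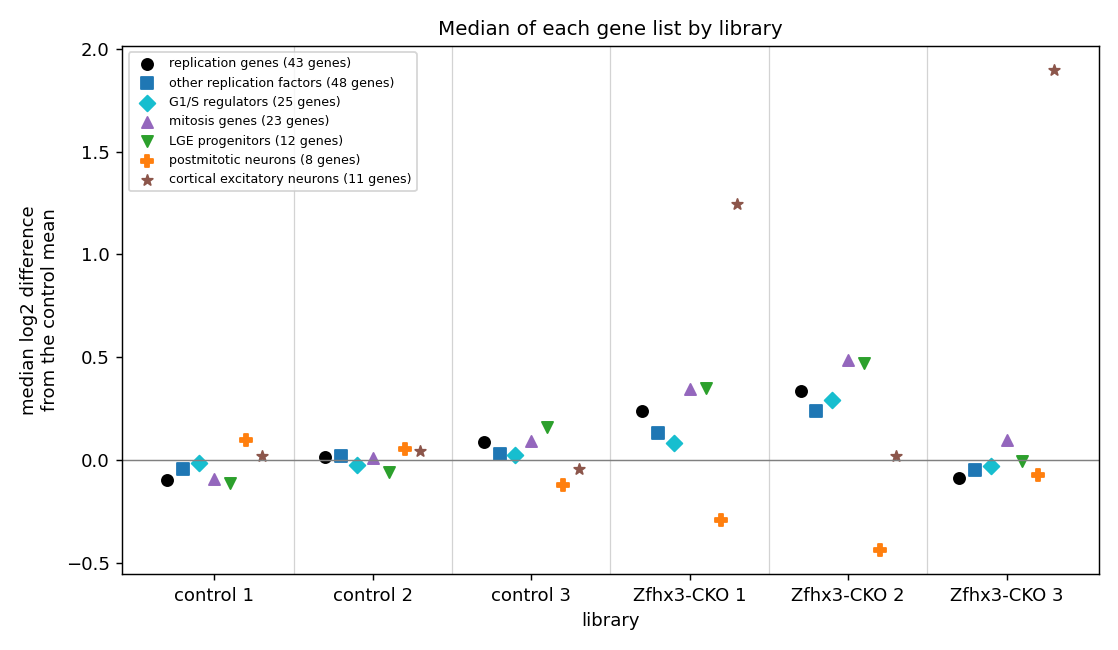
Median log2 difference from the control mean for 7 gene lists in each library. Replication genes, mitosis genes and LGE progenitor markers are highest in CKO library 2 (0.33, 0.49 and 0.47), neuron markers are lowest there (-0.44), and cortical excitatory markers are high only in CKO libraries 1 and 3 (1.24 and 1.90).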

How the data were processed

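RNA-seq of LGE was analysed from the deposited gene tables. Per the submitters' processing notes, bcl2fastq 2.17.1.14, HISAT2, StringTie and edgeR were used with GRCm38.p4 and mm10; their roles are not given in the sources used here. The deposited counts are raw, whole numbers per gene, per the file headers. The deposited FPKM values were scaled by the authors for length and depth. The authors also deposited p-values and log2 ratios of a test that the headers do not name. In the full table the control columns carry the Cre name and the other columns a code, and the columns were tied to samples by that and by number; for all 3726 genes of the shorter table they held the same counts as the titled columns.

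Counts were fitted with edgeR 4.0.16 (R 4.3.3): TMM factors, filterByExpr with a minimum count of 10 (16551 genes tested), group as the only term, quasi-likelihood test, Benjamini-Hochberg adjustment over all tested genes, threshold 0.05. SEs come from the F statistic. CPM values use TMM-scaled totals, and log2 differences from the control mean use CPM + 0.5. DESeq2 1.42.0 and limma 3.58.1 (log2(FPKM + 1), genes of at least 1 FPKM in 3 libraries) served as alternatives, beside other scalings, filters (strict: 5 CPM in 3 libraries), a replicate block and single libraries left out. The script was tested on simulated data. Exon overlaps come from GENCODE vM21 and promoters from RefSeq. The members, lists and alternatives were chosen with earlier results of these data known. Per-library values are given for the 2 members with the smallest p in each role group, and for Orc1 and Pcna, which were added after their values were seen; from each list outside the members the 4 genes with the smallest p are named. Bub1b, and genes that overlap a member, were named after their values were seen.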

Additional observations from a re-analysis of the deposited data

How the results depend on the processing

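Of the 43 members, 34 kept the sign of their log2 fold change in each of the 14 alternatives that fitted them, and no member was called lower in any; Fen1 was fitted in 12, not with the strict filter or limma-trend. The count of members called higher was 0 in the 6-library fit, 4 with DESeq2, 5 with unfiltered counts, 16 without Zfhx3-CKO libraries 1 and 3 (added after the data were seen) and 0 to 17 with single libraries left out. Their median log2 fold change stayed positive, at 0.09 to 0.28 with single libraries left out. The labels' replicate numbers gave no pairing: same-numbered libraries had correlations of -0.03, -0.08 and -0.25 in their deviations from the group means. With the replicate block, 0 members, 0 other replication factors in either direction, 1 G1/S regulator higher and 0 lower, 1 mitosis gene, and 176 higher and 136 lower genes over the whole table were called. Other replication factors called higher and lower were 7 and 2 with DESeq2, 1 and 2 with library totals only, 14 and 0 without Zfhx3-CKO libraries 1 and 3, and 0 to 15 and 0 to 2 with single libraries left out; 9 were higher with no low-count filter, 0 with limma-trend, and 2 were lower with the strict filter. G1/S regulators called higher were 1 with library totals only and with limma-trend, 9 (and 2 lower) without Zfhx3-CKO libraries 1 and 3, and 0 to 7 (0 to 2 lower) with single libraries left out. Mitosis genes called higher were 8 with DESeq2, 11 with no low-count filter, 2 with limma-trend, 18 without Zfhx3-CKO libraries 1 and 3 and 0 to 20 with single libraries left out. Over all genes, 1021 were higher with DESeq2, 1075 with no low-count filter, and 156 to 1082 higher and 131 to 1014 lower with single libraries left out. The causes of these shifts were not tested. For the 9 members that changed sign, with single libraries left out the log2 fold change ran from -0.0405 to 0.16 for Mcm4, -0.0412 to 0.29 for Mcm10, -0.17 to 0.0327 for Gins1, -0.0695 to 0.12 for Gins4, -0.06 to 0.13 for Pola1, -0.0475 to 0.13 for Orc6, -0.0575 to 0.14 for Lig1, -0.14 to 0.028 for Slbp and -0.25 to -0.02 for Chaf1b. Without Zfhx3-CKO libraries 1 and 3 it was 0.0273 for Gins1, 0.10 for Slbp and 0.13 for Chaf1b, and with limma-trend it was -0.0002 for Pola1. Counts of 14 to 17 a library limit Fen1, and with 3 libraries a group the exact two-sided permutation p for a single gene cannot go below 0.1.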

Other observations

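The 14 members with E2F letters in a promoter window had log2 fold changes from -0.23 (Orc1) to 0.39 (Pold1), with a median of 0.20, and the 22 members whose windows held none ran from -0.25 (Fen1) to 0.50 (Rrm2), with a median of 0.12. Without Zfhx3-CKO library 3, the lowest CKO library for 42 of the 43 members, 7 of these 14 and 7 of these 22 were called higher. Of all tested genes 6.47% were called higher in that fit. Of the G1/S regulators' windows 37.5% held E2F letters, and of those of the other replication factors 23.9%.

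Partner subunits of 3 complexes had unequal values. Without Zfhx3-CKO library 3, Gins2 stood at a log2 fold change of 0.57 (SE 0.15) and Gins1 at 0.03 (SE 0.12), Chaf1a at 0.54 (SE 0.08) and Chaf1b at -0.02 (SE 0.14), and Rrm2 at 0.64 (SE 0.09) and Rrm1 at 0.22 (SE 0.07). The differences between partners were not tested, and Gins2 and Chaf1a are both among the members whose exons overlap another gene.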
